A study of Mus musculus with 48 samples.

Results

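The colons of control mice at circadian time 21 (CT21), late in the subjective night, were set against those at circadian time 9 (CT9), late in the subjective day. The times lie 12 h apart, so genes that swing between day and night can stand near opposite ends of their range. The comparison used 8 control mice, 4 at each time, of the 48 mice in the series, and every gene of the count table was considered. All 48 were male C57BL/6J mice, with 24 controls and 24 mice lacking *Bmal1* in intestinal epithelial cells, 4 of each genotype at CT1, CT5, CT9, CT13, CT17 and CT21. The controls were Bmal1fl/fl Villin wt/wt littermates, which carry the floxed *Bmal1* alleles without Cre, and the Bmal1iec-/- mice carried the same alleles with 1 copy of a Cre recombinase driven by the *Villin* promoter. The Cre acts in the epithelium, so the other cells of the colon keep *Bmal1* in both genotypes. Mice were killed at 18-20 weeks of age on the second day of constant darkness after a 12 h light and 12 h dark schedule, single housed with a running wheel and fed normal chow *ad libitum*, and RNA of the colon was sequenced in bulk. Each library is 1 mouse, so the p-values measure the spread between mice.

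Libraries of control mice held 3790439-4408757 counts at CT21 and 3567093-4290393 counts at CT9, and between 4.71% and 6.04% of these were from mitochondrial genes. One CT9 mouse, SV420, stood apart from its group in 12 of the 25 values for which a mouse lay far outside its group, out of 396 examined. Without SV420, 497 genes were at least 1.5-fold higher and 587 at least 1.5-fold lower at CT21 with an edgeR adjusted p below 0.05, against 414 and 568 with it. Without the CT21 mouse SV441 these counts were 353 and 410.

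In the circadian clock, the transcription factors BMAL1 (encoded by *Arntl*) and CLOCK or its relative NPAS2 bind E-boxes and switch on the *Per*, *Cry* and *Nr1d* genes, whose products then repress this activity. The *Nr1d* repressors and the ROR activators compete for a second element, through which *Arntl*, *Npas2*, *Cry1* and *Nfil3* are driven in the opposite phase, and the PAR bZIP activators (*Dbp*, *Tef*, *Hlf*) compete with the repressor NFIL3 at D-boxes. In the gut, clocks of this kind run in the epithelium as well as in muscle, nerve and immune cells, and food intake, digestion, cell division and barrier genes change over the day.

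Of 14221 genes with enough counts to test, 1193 (8.39%) were higher and 1302 (9.16%) lower at CT21 than at CT9 in control mice (edgeR quasi-likelihood test, Benjamini-Hochberg adjusted p below 0.05). With a fold change of at least 1.5, 414 genes (2.91%) were higher and 568 (3.99%) were lower. Counts of gene lists in control mice below do not require that fold, and they stand beside the 8.39% and 9.16%. The log2 fold changes ran from -5.31 to 3.92 around a median of -0.02 over all genes tested. Leaving out predicted genes, clone names and pseudogenes, the 12 genes with the smallest p-values and a fold change of at least 1.5 in each direction had no overlap between the 4 CT21 mice and the 4 CT9 mice. Those that were higher at CT21 included *Arntl*, *Nfil3*, *Calr*, *Cldn8*, *Saraf*, *E2f2*, *Tnfrsf12a*, *Ergic1*, *Mogat2*, *Pdia6* and *Slc31a1*. Those that were lower were *Nr1d1*, *Dbp*, *Nr1d2*, *Ciart*, *Tef*, *Per3*, *Anxa7*, *Clec2h*, *Myo1a*, *Bche*, *Ccdc116* and *Hpgd*. Small p-values chose these genes, so the lack of overlap follows from the choice. The same holds for genes below that were named for a small p or a large change. In bulk tissue, fewer cells of a type and less RNA per cell cannot be told apart.

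**Figure D1:**
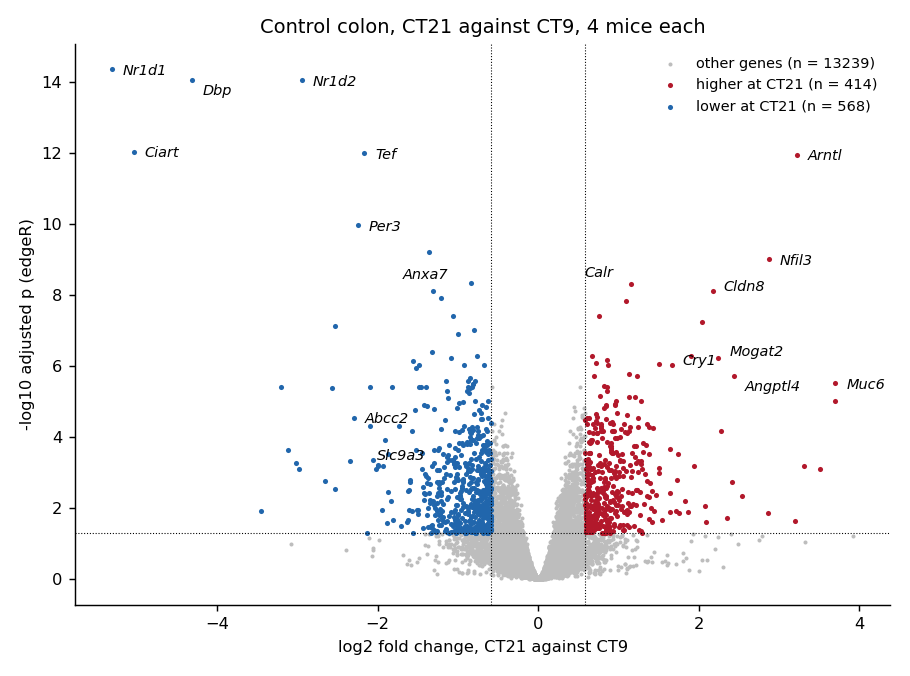
Each point is 1 of the 14221 genes tested in control colon, with the log2 fold change of CT21 against CT9 on the horizontal axis and -log10 of the edgeR adjusted p on the vertical axis. The 414 genes at least 1.5-fold higher at CT21 are red, the 568 at least 1.5-fold lower are blue and the others are grey, and *Nr1d1* (-5.31) and *Arntl* (3.23) lie near the outer edges.

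Promoters were searched for 3 elements through which the clock acts, and windows are shown for some of the genes described here that held one. The windows come from RefSeq promoters of build GRCm38.p6, which reach from 250 bases before to 50 bases after a start site. Both strands were searched for the E-box CACGTG, the D-boxes TTATGTAA and TTACGTAA, and the ROR elements ANTAGGTCA and ANTGGGTCA, and capitals mark the match. For *Arntl* (chr7:113207514-113207560, plus strand) the ROR element began 28 bases after 1 of the RefSeq start sites, and for *Nfil3* (chr13:52981018-52981076, minus strand) it lay 12 bases before the start in the reverse orientation. The window of *Leo1* (chr9:75441434-75441492, plus strand), encoding a subunit of the PAF1 elongation complex, held it too.
Arntl: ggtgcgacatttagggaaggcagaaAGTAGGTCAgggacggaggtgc
Nfil3: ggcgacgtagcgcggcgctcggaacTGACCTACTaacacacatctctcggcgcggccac
Leo1: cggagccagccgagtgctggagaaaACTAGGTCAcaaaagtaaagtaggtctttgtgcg

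E-boxes stood in the promoters of *Ciart* (chr3:95882242-95882369, minus strand), with 3 copies, of *Tef* (chr15:81802521-81802576, plus strand) and of *Cry1* (chr10:85185084-85185139, minus strand), while *Per3* (chr4:151044791-151044895, minus strand) held 2 D-boxes. *Per1* and *Bhlhe41* had an E-box as well and are not shown.
Ciart: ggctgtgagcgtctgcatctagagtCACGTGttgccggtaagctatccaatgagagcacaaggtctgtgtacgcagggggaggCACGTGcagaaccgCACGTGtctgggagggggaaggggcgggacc
Tef: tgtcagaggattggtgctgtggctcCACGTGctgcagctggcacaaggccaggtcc
Cry1: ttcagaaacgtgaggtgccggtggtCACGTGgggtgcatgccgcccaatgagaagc
Per3: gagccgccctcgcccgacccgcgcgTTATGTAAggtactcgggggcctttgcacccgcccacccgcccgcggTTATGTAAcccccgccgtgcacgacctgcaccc

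Among the genes at least 1.5-fold higher at CT21, 301 of 414 matched a RefSeq promoter, and 3.12% of their 384 promoters held a ROR element, against 1.09% of 13679 promoters over all genes tested and 1.45% of all 32851 promoters. For the genes at least 1.5-fold lower, 415 of 568 matched, with 536 promoters, of which 1.12% held a ROR element. E-boxes were in 9.11% of the promoters of the higher genes, 10.6% of those of the lower genes, 9.49% of those of all genes tested and 7.15% of all promoters. D-boxes were in 0.781% of the promoters of the higher genes, 0.746% of those of the lower genes, 0.687% over all genes tested and 1.06% over all promoters. These letters were not found in the windows of *Nr1d1*, *Nr1d2*, *Dbp*, *Hlf* or *Npas2*, which says only that they are not in this stretch of sequence.

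Of 5 tested clock activators, 4 were higher at CT21 and none was lower, with a median log2 fold change of 1.09. *Arntl* (ENSMUSG00000055116.8, chromosome 7) had 229, 234, 256 and 280 normalized counts in the 4 CT21 mice and 15.8, 22.4, 31.6 and 34.9 in the 4 CT9 mice. Every CT21 mouse lay far above every CT9 mouse, and the log2 fold change was 3.23 ± 0.19 (SE, n = 4 mice per time, edgeR adjusted p = 1.15e-12), or 9.35-fold. *Npas2*, the relative of *Clock*, had 119, 135, 146 and 156 at CT21 and 43.1, 47.4, 62.2 and 100 at CT9. The groups did not overlap, although 1 CT9 mouse came close to the CT21 range (log2 fold change 1.11 ± 0.18, edgeR adjusted p = 7.63e-05). *Clock* itself had 323, 360, 402 and 555 at CT21 against 289, 291, 298 and 343 at CT9, with overlapping groups. Its log2 fold change of 0.41 ± 0.14 passed narrowly (edgeR adjusted p = 0.0485) and no longer passed without SV401, SV420, SV441, SV476 or SV412. *Rora* had a log2 fold change of -0.26 and did not pass (edgeR adjusted p = 0.132).

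The clock repressors split, with 2 of 13 tested members higher and 7 lower at CT21. *Nr1d1*, encoding the repressor REV-ERBα, had the largest fold change of all genes tested, with 7.57, 13.9, 16.5 and 17.1 normalized counts at CT21 and 406, 543, 555 and 704 at CT9. No mouse came near the other group, and the log2 fold change was -5.31 ± 0.23 (edgeR adjusted p = 4.53e-15), or 39.6-fold lower at CT21. Its relative *Nr1d2* had 101, 104, 109 and 114 at CT21 against 628, 825, 901 and 930 at CT9 (-2.94 ± 0.14, edgeR adjusted p = 9.24e-15). *Ciart*, whose product represses BMAL1 and CLOCK, had 0.87, 4.73, 5.13 and 6.96 at CT21 and 125, 133, 146 and 180 at CT9 (-5.04 ± 0.29, edgeR adjusted p = 9.24e-13). All 3 genes were lower in each CT21 mouse than in any CT9 mouse. *Per3* fell from 318, 435, 497 and 529 at CT9 to 83.5, 89.8, 99.2 and 105 at CT21 (-2.24 ± 0.16, edgeR adjusted p = 1.1e-10).

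*Per1* was also lower at CT21 (log2 fold change -1.26 ± 0.27, edgeR adjusted p = 0.00189), as was *Bhlhe41*, encoding the E-box repressor DEC2 (-1.61 ± 0.37, edgeR adjusted p = 0.00311). The CT21 mice had 85.5, 164, 173 and 183 normalized counts of *Per1*, and the CT9 mice had 317, 319, 398 and 416. *Cry1* went the opposite way, with 156, 193, 202 and 206 at CT21 and 38, 38.9, 74.6 and 83.3 at CT9. The *Cry1* groups lay well apart (1.67 ± 0.19, edgeR adjusted p = 9.23e-07). *Csnk1d*, encoding a kinase that phosphorylates the PER proteins, was slightly higher (0.37 ± 0.08, edgeR adjusted p = 0.00135). *Per2* (-0.31 ± 0.19), *Cry2* (0.01 ± 0.14), *Bhlhe40* (-0.25 ± 0.14) and *Csnk1e* (0.26 ± 0.14) did not pass. The mean of *Per2*, *Cry2*, *Bhlhe40* and *Csnk1e* over the 6 times was highest at CT13 in the controls, between the times compared.

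All 4 genes of the D-box group passed. The PAR bZIP activators *Dbp*, *Tef* and *Hlf* were lower at CT21 and their competitor *Nfil3* was higher. *Dbp* had 15.7, 16.9, 18.9 and 22.2 normalized counts at CT21 and 256, 336, 415 and 466 at CT9, *Tef* had 213, 238, 241 and 249 against 847, 1055, 1110 and 1183, and *Hlf* had 24.9, 41.1, 42.6 and 43.5 against 83.3, 108, 111 and 149. None of the 3 overlapped between the times, and the log2 fold changes were -4.32 ± 0.20 for *Dbp*, -2.17 ± 0.13 for *Tef* and -1.56 ± 0.18 for *Hlf* (edgeR adjusted p = 9.24e-15, 1.04e-12 and 7.45e-07). *Nfil3* had 78.5, 80.9, 101 and 127 at CT21 against 8.43, 9.46, 14.6 and 18.8 at CT9. All 4 CT21 mice were above all 4 CT9 mice (2.87 ± 0.23, edgeR adjusted p = 9.83e-10, 7.33-fold).

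**Figure D2:**
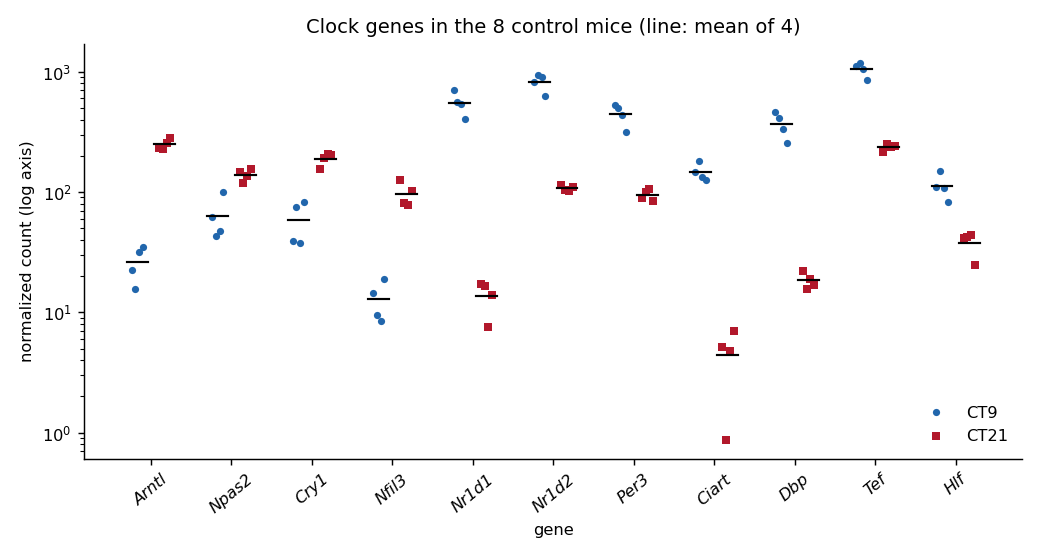
Normalized counts (vertical log axis) of 11 clock genes in each of the 8 control mice, with 4 circles at CT9, 4 squares at CT21 and a line at each group's mean. *Arntl*, *Npas2*, *Cry1* and *Nfil3* were higher at CT21 and *Nr1d1*, *Nr1d2*, *Per3*, *Ciart*, *Dbp*, *Tef* and *Hlf* were lower, without overlap.

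Beyond the core loop, 4 of 19 tested clock output genes were higher at CT21 and 2 were lower (7 higher without the filter on low counts or with only the 8 mice fitted). The shares over all genes tested were 8.39% higher and 9.16% lower, and the lower count is near that share. *Leo1* had 105, 112, 124 and 127 normalized counts at CT21 and 55.7, 61.1, 71.7 and 77.8 at CT9 (0.80 ± 0.13, edgeR adjusted p = 0.000108). *Pdk4*, a kinase that holds back pyruvate oxidation, had 110, 161, 201 and 227 against 57.8, 62.2, 72.9 and 76.1 (1.35 ± 0.29, edgeR adjusted p = 0.00174), and *Lonrf3* and *Ypel2* were higher too (1.32 and 0.65). The groups of *Leo1* and *Pdk4* did not overlap. The 2 output genes that were lower were *Rbm3* and *Cirbp*, both cold-inducible RNA-binding proteins. *Rbm3* had 353, 376, 386 and 417 at CT21 and 620, 674, 797 and 801 at CT9 (-0.93 ± 0.11, edgeR adjusted p = 9.52e-07), and the log2 fold change of *Cirbp* was -0.76 ± 0.18 (edgeR adjusted p = 0.00354).

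The genes whose rank over the 24 control mice of all 6 times was most like that of *Arntl* were *Cldn8*, *Exo1* and *Mtch2*, with Spearman correlations of 0.928, 0.917 and 0.916. For *Dbp* they were *Ciart* (0.935), *Slc11a2* (0.926) and *Psmb10* (0.926). These are descriptions over mice that share the same 6 times, without a test. *Cldn8*, a claudin of the tight junction, had 202, 253, 267 and 292 normalized counts at CT21 and 35.7, 59.1, 62.2 and 64.2 at CT9 (2.18 ± 0.19, edgeR adjusted p = 7.86e-09). Its 2 groups were separate. *Slc11a2*, the intestinal importer of iron, ran the other way, with 185, 187, 194 and 246 at CT21 and 395, 397, 468 and 498 at CT9 (-1.12 ± 0.15, edgeR adjusted p = 8.09e-06).

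CT21 and CT9 were not the extremes for every called gene. Of the 414 genes at least 1.5-fold higher at CT21, 237 (57.2%) had their highest control mean at CT21, 90 (21.7%) at CT17, 49 (11.8%) at CT1 and 37 (8.94%) at CT13, and 227 (54.8%) had their lowest at CT9. Of the 568 that were lower, 373 (65.7%) had their highest mean at CT9, 106 (18.7%) at CT1 and 61 (10.7%) at CT5, while 289 (50.9%) were lowest at CT21 and 146 (25.7%) at CT17. Over all genes tested, the highest mean was at CT21 for 12.9% and at CT9 for 15.7%. Because CT21 and CT9 chose these genes, a raised share at those times follows from the choice. Among the genes above, *Arntl*, *Npas2* and *Cldn8* were highest at CT1, while *Nr1d1*, *Dbp*, *Ciart* and *Tef* were highest at CT9.

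Genes of DNA replication and genes of mitosis went in opposite directions. Of 27 S phase genes tested, 19 were higher at CT21 and none was lower, with a median log2 fold change of 0.62. Of 25 genes of G2 and mitosis, none was higher and 13 were lower, with a median of -0.53, against a median of -0.02 over all genes. *Mcm6*, a subunit of the replicative helicase, had 296, 355, 368 and 428 normalized counts at CT21 and 158, 179, 186 and 203 at CT9. The groups did not overlap (0.98 ± 0.14, edgeR adjusted p = 2.03e-05). *Chaf1b*, a histone chaperone subunit that works at the fork, *Mcm2*, another helicase subunit, and *Pcna*, the sliding clamp, were higher as well (1.35, 0.92 and 0.58). *Ccnb1*, encoding cyclin B1, had 27.4, 54, 56.5 and 63.6 at CT21 and 104, 115, 116 and 121 at CT9, so that the lowest CT9 mouse exceeded the highest CT21 mouse (-1.18 ± 0.21, edgeR adjusted p = 0.000298). *Cdc20*, the activator of the anaphase-promoting complex, *Cenpf*, a kinetochore protein, and *Ccnb2* were also lower (-1.26, -1.23 and -1.13).

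The mean log2 level of the S phase list, relative to the 24 controls, was 0.33, 0.37, 0.38 and 0.69 in the CT21 mice and -0.39, -0.33, -0.21 and -0.17 in the CT9 mice. For G2 and mitosis it was -0.51, -0.33, -0.21 and 0.16 at CT21 and 0.09, 0.44, 0.54 and 0.61 at CT9. The S phase levels were separate, whereas the G2 and mitosis levels overlapped through SV476 at CT21 and SV420 at CT9. Over the 6 times, the S phase list was highest at CT21 (0.44) and lowest at CT13 (-0.45). The G2 and mitosis list was highest at CT5 (0.70) and CT1 (0.69) and lowest at CT17 (-0.84), so neither CT21 nor CT9 was its extreme. When single mice were left out or other fits used, the S phase count stayed between 18 and 20 and the G2 and mitosis count between 9 and 18. *E2f2*, encoding an E2F factor that acts on replication genes, was among the 12 leading genes, with 100, 120, 135 and 137 at CT21 and 20, 22.4, 37 and 40.1 at CT9 (2.03 ± 0.20, edgeR adjusted p = 5.64e-08).

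**Figure D3:**
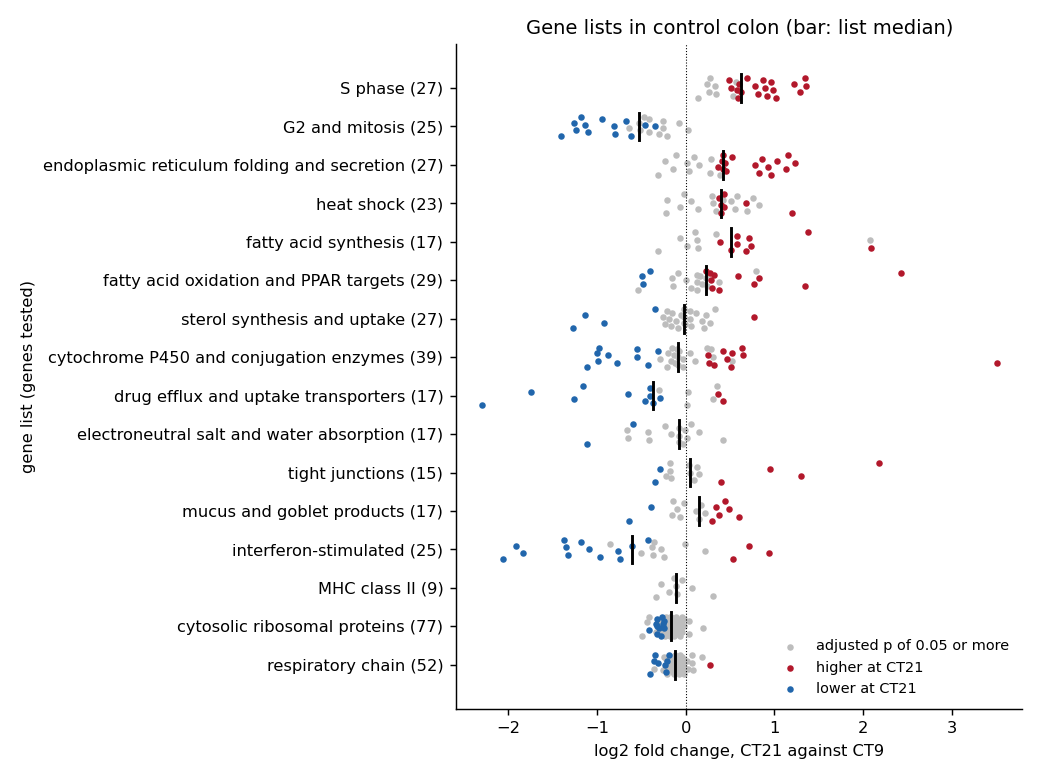
Log2 fold change of CT21 against CT9 in control colon (horizontal axis) for the tested members of 16 gene lists, each point a gene, red or blue where called higher or lower at an edgeR adjusted p below 0.05, with a bar at the list's median. S phase genes lie mostly to the right (median 0.62) and genes of G2 and mitosis mostly to the left (median -0.53).

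Many genes of folding and secretion in the endoplasmic reticulum, a list of chaperones, folding enzymes, stress factors and translocon subunits, were higher at CT21. Of 27 tested, 16 were higher and none lower, with a median log2 fold change of 0.42. *Calr*, encoding the calcium-binding chaperone calreticulin, had 3996, 4030, 4135 and 4209 normalized counts at CT21 and 1584, 1696, 1908 and 2110 at CT9. Mice of 1 time differed little from each other and the groups were far apart (1.15 ± 0.10, edgeR adjusted p = 5.02e-09). *Pdia6*, a protein disulphide isomerase, *Hsp90b1*, encoding the chaperone GRP94, and *Sdf2l1*, an ER chaperone component, were higher too (0.86, 0.82 and 1.24). The list's level was 0.15, 0.18, 0.19 and 0.29 at CT21 and -0.38, -0.35, -0.25 and -0.14 at CT9, without overlap. *Saraf*, encoding a regulator of store-operated calcium entry at the ER, and *Ergic1*, a cargo cycling protein between ER and Golgi, were among the 12 leading genes (0.76 ± 0.07 and 0.67 ± 0.07).

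Of 23 genes of the heat shock list, 7 were higher and none lower (median 0.40). This count was 3 without SV401, SV412 or SV415, 4 without SV441, 11 without SV420 or with only the 8 mice fitted, and 14 without the filter on low counts. *Serpinh1*, encoding the collagen chaperone HSP47, was higher in every alternative, with 333, 356, 400 and 426 normalized counts at CT21 and 142, 159, 160 and 192 at CT9 (1.2 ± 0.16, edgeR adjusted p = 7.51e-06).

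Of 17 genes of fatty acid synthesis, 9 were higher at CT21 and none lower, with a median log2 fold change of 0.51. *Elovl5*, an elongase of polyunsaturated fatty acids, had 392, 397, 405 and 419 normalized counts at CT21 and 230, 247, 254 and 270 at CT9. *Fads1*, the delta-5 desaturase, had 211, 217, 224 and 237 against 107, 139, 143 and 151. Neither gene overlapped between the times (0.68 ± 0.11 and 0.71 ± 0.11, edgeR adjusted p = 7.63e-05 and 5.49e-05). *Scd2*, a stearoyl-CoA desaturase, and *Mlxipl*, encoding the carbohydrate-responsive factor ChREBP, were also higher (0.74 and 0.57), whereas *Acly* (0.01) and *Fasn* (0.35) did not pass. Adipocyte markers varied widely from mouse to mouse. Their level was -2.67 (SV441), 0.71, 1.93 and 2.91 at CT21 and -1.04, -0.56, -0.08 and 2.02 (SV420) at CT9, and none of the 6 passed (median log2 fold change 1.14). The level of the fatty acid synthesis list was -0.14 (SV441), 0.20, 0.50 and 0.64 at CT21 and -0.34, -0.32, -0.25 and -0.02 (SV420) at CT9. SV441 was thus lowest of the CT21 mice and SV420 highest of the CT9 mice on both lists. The part of fat tissue in the fatty acid result was not tested.

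Of 29 genes of fatty acid oxidation and PPAR targets, 11 were higher and 3 lower (median 0.23), with 7 higher when all 48 mice were fitted together. The lower count is near the 9.16% of all genes tested that were lower, and 8.39% were higher. *Angptl4*, an inhibitor of lipoprotein lipase, had 73.1, 84.5, 94.6 and 109 normalized counts at CT21 and 12.6, 13.7, 18.8 and 20.4 at CT9. The CT21 mice stood clearly above (2.43 ± 0.29, edgeR adjusted p = 1.92e-06). *Ehhadh*, the peroxisomal bifunctional enzyme, was higher (0.82 ± 0.11, edgeR adjusted p = 1.5e-05), while *Pparg*, a PPAR receptor gene, and *Ppargc1a*, a coactivator gene, were lower (-0.40 and -0.48), *Ppargc1a* no longer when all 48 mice were fitted together. Genes of fat absorption gave 1 higher and 1 lower of 13, near the 8.39% and 9.16% of all genes tested. *Mogat2*, which re-forms diacylglycerol from absorbed monoacylglycerol, had 86.5, 96.6, 98.4 and 120 at CT21 and 15.8, 20, 23.3 and 24.2 at CT9 (2.24 ± 0.25, edgeR adjusted p = 5.97e-07), and *Fabp2*, the intestinal fatty acid-binding protein, was lower (-0.84 ± 0.14, edgeR adjusted p = 0.000117).

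Sterol synthesis and glycolysis did not move as groups. Of 27 sterol genes 1 was higher and 4 lower, with a median of -0.02, beside 8.39% higher and 9.16% lower over all genes tested. The higher one was *Dhcr7*, the last enzyme of cholesterol synthesis, with 514, 549, 555 and 559 normalized counts at CT21 and 289, 316, 318 and 345 at CT9 (0.77 ± 0.10, edgeR adjusted p = 7.09e-06). None of the lower ones remained without SV401, SV441, SV412, SV433 or SV415. Of 21 genes of glycolysis and glucose handling, 4 were higher (2 without SV412) and 4 lower (2 without SV401, SV420, SV441, SV476 or SV412). *Pgk1*, a glycolytic kinase, and *Slc16a1*, a lactate and butyrate transporter, were higher (0.49 and 0.63), and *Pdk1*, which inhibits pyruvate dehydrogenase, and *Slc5a1*, the sodium-glucose cotransporter, were lower (-0.61 and -0.50).

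The list of drug and bile acid transporters, which also holds nuclear receptor genes and the binding protein gene *Fabp6*, was mostly lower at CT21. Of 17 tested, 2 were higher and 10 lower, with a median log2 fold change of -0.37. *Abcc2*, encoding the efflux pump MRP2, had 8.52, 8.56, 10.4 and 15.9 normalized counts at CT21 and 25.1, 54.8, 59.3 and 74.6 at CT9. *Slc10a2*, the sodium-dependent bile acid importer, had 586, 795, 853 and 907 against 1371, 1603, 1902 and 2055. *Abcb1a*, encoding a P-glycoprotein, had 3149, 3520, 3762 and 3834 against 4918, 5118, 5723 and 6535. In all 3 genes the CT21 mice lay below the CT9 mice, with log2 fold changes of -2.30 ± 0.34, -1.15 ± 0.14 and -0.65 ± 0.10 (edgeR adjusted p = 2.82e-05, 2.66e-06 and 5.75e-05). The peptide transporter *Slc15a1* was lower too (-1.74 ± 0.26, edgeR adjusted p = 4.84e-05), and the efflux pumps *Abcc1* and *Abcg2* were the 2 that were higher (0.37 and 0.42).

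Cytochrome P450 and conjugation enzymes were split, with 10 higher and 10 lower of 39, beside 8.39% and 9.16% of all genes tested. *Cyp3a13* had 531, 627, 629 and 697 normalized counts at CT21 and 945, 1045, 1252 and 1299 at CT9 (-0.88 ± 0.11, edgeR adjusted p = 2.72e-06). *Cyp4f14*, *Cyp2d26* and the sulphotransferase *Sult1a1* were lower as well (-0.99, -1.11 and -0.55). *Ces1d*, a carboxylesterase, and the glutathione transferases *Gsta4* and *Gstm3* were higher (0.64, 0.63 and 0.52). *Cyp1a1*, a target of the aryl hydrocarbon receptor, had 8.95, 9.41, 20.8 and 22.6 at CT21 and 0, 1.05, 1.05 and 2.92 at CT9 (edgeR adjusted p = 0.000775). The CT9 mice had no more than 3 counts each, so no fold change is given.

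Of 17 genes of electroneutral salt and water absorption, none was higher and 2 were lower, the exchangers *Slc9a3* and *Slc26a3* that together take up sodium chloride, a share near the 9.16% of all genes that were lower. *Slc9a3* (chromosome 13), encoding NHE3, had 568, 598, 666 and 781 normalized counts at CT21 and 875, 1161, 1701 and 1866 at CT9, and *Slc26a3*, the chloride-bicarbonate exchanger DRA, had 706, 723, 765 and 805 against 902, 1033, 1233 and 1346. Both genes were lower in every CT21 mouse, with log2 fold changes of -1.11 ± 0.21 and -0.60 ± 0.13 (edgeR adjusted p = 0.000429 and 0.00194). In the axis of the epithelial sodium channel and aldosterone, 2 of 12 genes were higher and 3 lower (1 without SV420, SV476, SV412 or SV433). *Sgk1*, a kinase that raises channel activity, had 705, 961, 1056 and 1161 at CT21 and 253, 261, 367 and 631 at CT9, with the highest CT9 mouse just below the lowest CT21 mouse (1.34 ± 0.23, edgeR adjusted p = 0.00017). *Nr3c2*, encoding the mineralocorticoid receptor, was lower (-0.43 ± 0.10, edgeR adjusted p = 0.00265).

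Of 15 tight junction genes, 4 were higher and 2 lower, with 1 lower without SV401, SV420, SV441, SV476, SV415 or SV434. These counts stand beside 8.39% higher and 9.16% lower over all genes tested. Besides *Cldn8*, the higher ones were *Cldn2*, which forms a cation and water pore, the sealing claudin *Cldn4*, and *Cgn*, the scaffold cingulin. *Cldn2* had 2445, 2847, 3322 and 3489 normalized counts at CT21 and 858, 921, 1024 and 2059 at CT9. The CT9 mouse with 2059 was SV420, and the groups still did not overlap (1.3 ± 0.22, edgeR adjusted p = 0.00015). The log2 fold changes of *Cldn4* and *Cgn* were 0.95 ± 0.20 and 0.40 ± 0.10 (edgeR adjusted p = 0.00127 and 0.00401). *Cldn7* was lower (-0.35 ± 0.09, edgeR adjusted p = 0.00655) but did not pass when all 48 mice were fitted together.

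Of 17 genes of mucus and goblet products, 6 were higher and 2 lower, with 3 higher without SV441 or SV433, 2 higher without SV415, and 1 lower without SV401, SV441, SV476 or SV415. The share of all genes tested was 8.39% higher and 9.16% lower, and the lower count is near it. *Agr2*, a disulphide isomerase needed for mucin folding, had 10794, 11114, 11586 and 12460 normalized counts at CT21 and 6842, 8575, 9050 and 9172 at CT9, without overlap (0.44 ± 0.10, edgeR adjusted p = 0.0029). The membrane mucin *Muc13* was higher (0.35 ± 0.08, edgeR adjusted p = 0.00192) and *Fer1l6* was lower (-0.64 ± 0.10, edgeR adjusted p = 6.71e-05).

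Of 10 receptors and transporters of microbial metabolites, 3 were higher and 2 lower. *Ffar2*, encoding a receptor for short-chain fatty acids, had 151, 158, 161 and 174 normalized counts at CT21 and 70.6, 74.6, 86.5 and 107 at CT9 (0.91 ± 0.16, edgeR adjusted p = 0.000231). The groups were separate. *Ffar4*, a receptor for long-chain fatty acids, was higher too (0.92 ± 0.21, edgeR adjusted p = 0.0035), and *Gpr35* was lower (-0.69 ± 0.12, edgeR adjusted p = 0.000165). Of 21 genes of microbial sensing and antimicrobial defence, none was higher (2 without SV401) and 3 were lower, or 5 without the filter on low counts, beside the 9.16% of all genes that were lower. *Tlr2*, a sensor of bacterial lipoproteins, had 111, 187, 202 and 232 at CT21 and 251, 291, 298 and 330 at CT9 (-0.68 ± 0.16, edgeR adjusted p = 0.00436). *Tlr4*, the endotoxin receptor, was lower (-0.62 ± 0.17, edgeR adjusted p = 0.00987) but not without SV433. *Retnlb*, encoding the goblet cell protein RELMβ, was scarce, with 0, 1.74, 1.99 and 5.13 at CT21 and 8.43, 9.46, 12.6 and 23.3 at CT9 (-2.53 ± 0.58, edgeR adjusted p = 0.00295), and it did not pass when all 48 mice were fitted together.

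Interferon-stimulated genes were mostly lower at CT21. Of 25 tested, 3 were higher and 13 lower, with a median log2 fold change of -0.60. *Oasl2*, an oligoadenylate synthetase-like protein, had 58.7, 75.3, 76.6 and 97.5 normalized counts at CT21 and 106, 260, 361 and 427 at CT9. Every CT9 mouse was above the CT21 range, 1 of them only just (-1.91 ± 0.31, edgeR adjusted p = 0.000117). *Oas3*, *Ifit3* and *Zbp1*, which encode antiviral proteins, were lower as well (-2.06, -1.35 and -1.18). *Rsad2*, encoding the antiviral enzyme viperin, was higher (0.94 ± 0.19, edgeR adjusted p = 0.000992), as were *Mx1* and *Bst2*, which no longer passed without SV401, SV441, SV412, SV433 or SV415 (*Bst2* also without SV434). The list's level was -0.59, -0.36, -0.19 and -0.13 at CT21 and -0.36, 0.25, 0.50 and 0.66 at CT9, and the CT9 mouse SV415 lay within the CT21 range. The count of lower genes ran from 8 to 18 over the alternatives, with 8 without SV441. None of the 9 tested genes of MHC class II passed, and their median was -0.11.

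**Figure D4:**
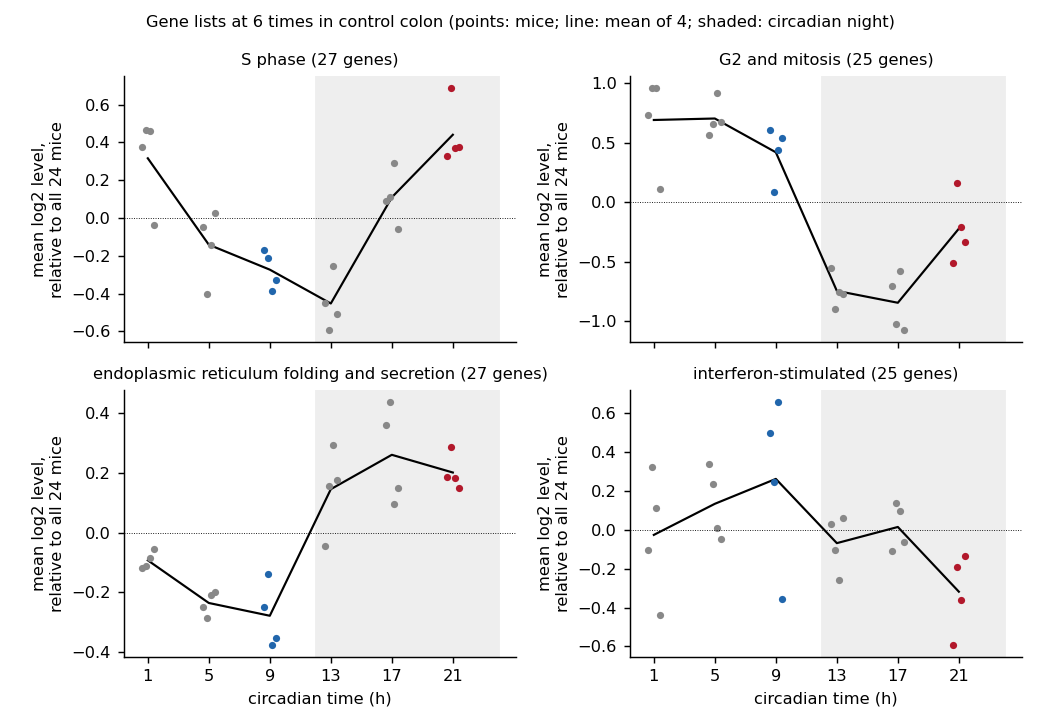
Mean log2 level of 4 gene lists relative to the 24 control mice (vertical axis) at the 6 circadian times (horizontal axis, h) in control mice, with a point for each mouse, a line through the means of 4 and the circadian night shaded. The S phase list was highest at CT21 (0.44), the G2 and mitosis list at CT5 (0.70), the endoplasmic reticulum list at CT17 (0.26) and the interferon-stimulated list at CT9 (0.26).

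Among cytokines, chemokines and adhesion genes, 1 of 13 passed, beside 8.39% higher and 9.16% lower over all genes tested. *Vcam1*, an endothelial adhesion molecule, had 29.9, 31.8, 34.8 and 35 normalized counts at CT21 and 47.4, 51.1, 54.7 and 58.3 at CT9 (-0.69 ± 0.18, edgeR adjusted p = 0.0095). *Cxcr4* (-0.83 ± 0.31), the complement gene *Hc* (-0.45 ± 0.34) and *Tff2* (0.12 ± 0.60) did not pass, although *Cxcr4* did without SV420 (edgeR adjusted p = 0.0403). *Tnf* had 7.57, 8.7, 8.95 and 15.4 at CT21 and 4.22, 5.26, 5.37 and 8.75 at CT9, and *Ifng* had at most 1.99 in any of the 8 mice, so both were too low to test. Among the gasdermins, caspases and inflammasome genes, 2 of 18 were higher (1 without SV441 or SV412) and 4 lower (1 without SV401 and 2 without SV420, SV441, SV476, SV412, SV433 or SV415). *Gsdmd*, the pore-forming gasdermin cut by inflammatory caspases, was lower (-0.41 ± 0.10, edgeR adjusted p = 0.0034).

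The remaining lists stand beside 8.39% higher and 9.16% lower over all genes tested. Glucocorticoid-responsive genes gave 1 higher and 2 lower of 14, with *Klf9* at -0.55 ± 0.11 (edgeR adjusted p = 0.00142). Immediate early genes gave 3 higher and none lower of 17. Among them *Ier5* had 119, 142, 147 and 154 normalized counts at CT21 and 45.2, 63.2, 66.4 and 105 at CT9 (0.98 ± 0.16, edgeR adjusted p = 0.000108). Wnt and stem cell genes gave 2 higher (1 without SV441, SV476, SV412, SV433, SV415 or SV434, and 0 with all 48 mice fitted) and 1 lower of 14. The lower gene was *Lgr5*, the stem cell receptor, with 19.9, 29.8, 31.7 and 38.3 against 41.8, 48.4, 68.5 and 75.2 (-0.97 ± 0.23, edgeR adjusted p = 0.00451). Of 16 arginine and polyamine enzymes, 4 were higher and 1 lower. *Arg2*, the mitochondrial arginase, had 60.6, 86.2, 94.1 and 100 against 27.8, 30.1, 45.2 and 46.4 (1.19 ± 0.20, edgeR adjusted p = 0.000174), and *Otc*, which makes citrulline, was lower (-0.71 ± 0.13, edgeR adjusted p = 0.000463).

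The next lists also stand beside the 8.39% higher and 9.16% lower of all genes tested. Cytosolic ribosomal proteins gave none higher and 11 lower of 77, with a median log2 fold change of -0.17. This count was 2 without SV401, SV441 or SV434, 3 without SV415, 6 without SV476, 21 without SV433 and 23 without SV412, so single mice set it. *Rpl10a* was lower in every alternative (-0.41 ± 0.07, edgeR adjusted p = 0.000168). Splicing factors gave 8 lower and none higher of 31, with *Hnrnpa1* at -0.45 ± 0.08 (edgeR adjusted p = 0.000511), and respiratory chain genes gave 1 higher and 8 lower of 52, with *Ndufa9* at -0.34 ± 0.08 (edgeR adjusted p = 0.00263). For splicing factors 2 were lower when all 48 mice were fitted. The respiratory count was 1 without SV401, 4 without SV420, SV476, SV415 or SV434, and 5 without SV441 or SV433. Ribosome biogenesis gave 2 higher and 1 lower of 30, and the higher count was 0 without SV401, SV441 or SV412, 1 without SV433 or SV415, 4 without SV434 and 7 without SV420. Nuclear long non-coding RNAs gave 2 lower of 8. With all 48 mice fitted together, 4 ribosomal protein genes, 2 respiratory chain genes and 1 long non-coding RNA were lower, 3 genes of mucus and goblet products and 2 of glycolysis were higher, and 1 gene of the sodium channel axis was lower.

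Several of the 12 leading genes in each direction belong to no list. *Myo1a*, the myosin that ties the microvillus core to its membrane, had 966, 1088, 1148 and 1176 normalized counts at CT21 and 2390, 2497, 2546 and 2633 at CT9. *Anxa7*, an annexin, had 499, 501, 507 and 534 against 868, 892, 897 and 968. Both were lower in all 4 CT21 mice, with log2 fold changes of -1.21 ± 0.11 and -0.84 ± 0.07 (edgeR adjusted p = 1.2e-08 and 4.51e-09). The lectin gene *Clec2h*, the butyrylcholinesterase gene *Bche* and *Hpgd*, whose enzyme breaks down prostaglandins, had log2 fold changes of -1.31, -1.06 and -0.81, and *Ccdc116* had -2.53. On the other side, *Tnfrsf12a*, the receptor for the cytokine TWEAK, had 54.8, 67.6, 68.6 and 78.5 against 13.7, 15.8, 17.5 and 23.3 (1.91 ± 0.21, edgeR adjusted p = 5.25e-07), and the copper importer *Slc31a1* was higher by 0.72 ± 0.08 (edgeR adjusted p = 8.28e-07).

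By size of change among called genes with a mean of at least 20 normalized counts in the higher group, *Muc6*, *Adamts4*, *Arntl*, *Igkv2-109* and *Nfil3* led the higher genes and *Nr1d1*, *Ciart*, *Dbp*, *Igkv16-104* and *5430427M07Rik* the lower genes. *Muc6*, a gel-forming mucin typical of stomach and duodenal glands, had 48.8, 104, 110 and 145 normalized counts at CT21 and 4.2, 7.38, 8.75 and 9.85 at CT9. *Adamts4*, a protease of matrix proteoglycans, had 21.9, 30.8, 46.1 and 48.3 against 1.94, 2.1, 2.11 and 4.48. In both genes the lowest CT21 mouse was several times the highest CT9 mouse, with log2 fold changes of 3.70 ± 0.46 and 3.69 ± 0.50 (edgeR adjusted p = 3.1e-06 and 9.92e-06). The antibody segments are a different case. *Igkv2-109* had 31.2, 37.8, 49.6 and 306 at CT21, the last in SV433, and *Igkv16-104* had 26.3, 30.1, 64.3 and 218 at CT9. The call of *Igkv2-109* (edgeR adjusted p = 0.0228) was lost without SV433, SV401, SV412 or SV415, and that of *Igkv16-104* (edgeR adjusted p = 0.0119) without SV420.

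Markers of other cell types were set beside these changes. Their counts stand beside 8.39% higher and 9.16% lower over all genes tested, and 1 of 10 is near either share. None of 12 smooth muscle, 11 neuron and glia, 8 endothelium, 6 T cell or 4 plasma cell markers passed, and 1 of 10 fibroblast markers (*Pdgfra*, higher) and 1 of 10 myeloid markers (*Itgax*, lower) did. For goblet cells 4 of 8 markers were higher, for tuft cells 3 of 6 were lower, and for the colon epithelium 1 of 13 was higher and 3 lower. The summed epithelium markers had 58851-62558 normalized counts at CT21 and 64358-79024 at CT9, without overlap. The sum for smooth muscle was 22120-28065 and 24070-26722, and that for fibroblasts was 5749-7992 and 5981-7349. Sums of T cell markers were 76.6-110 at CT21 and 108-149 at CT9. Of 9 anterior Hox genes 2 were lower and none of 6 distal Hox genes passed, and the sum of the anterior genes was 770-893 at CT21 and 906-997 at CT9, without overlap. The part of the place along the colon from which tissue came, and of the share of epithelium, in the gene changes was not tested. The epithelial markers were all detected in the 8 mice, and 5 pancreas markers as well as *Defa30* and *Olfm4* of the small intestine were at 0 in every one.

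In Bmal1iec-/- mice, 416 genes (2.85%) were higher and 429 (2.93%) lower at CT21 than at CT9 (edgeR adjusted p below 0.05, all 48 mice fitted). The control counts above came from a fit of the controls alone, so counts of the genotypes are not directly comparable. Of the 414 genes at least 1.5-fold higher at CT21 in the controls, with a median log2 fold change of 0.84, 383 had the same sign and 121 were called in the same direction in the mutants, where their median was 0.49. Of the 568 lower ones, with a median of -0.84, 537 had the same sign and 174 were called, and their median was -0.52. Since the controls chose these genes, a smaller median in the other genotype follows in part from the choice. A test of the difference between the genotypes called 17 of 14618 genes (0.116%), 10 when only the 16 mice of CT21 and CT9 were fitted and 139 without a filter on low counts. On simulated counts this test recovered 53.3% of genes changed 2-fold, so a gene not called may still differ.

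**Figure D5:**
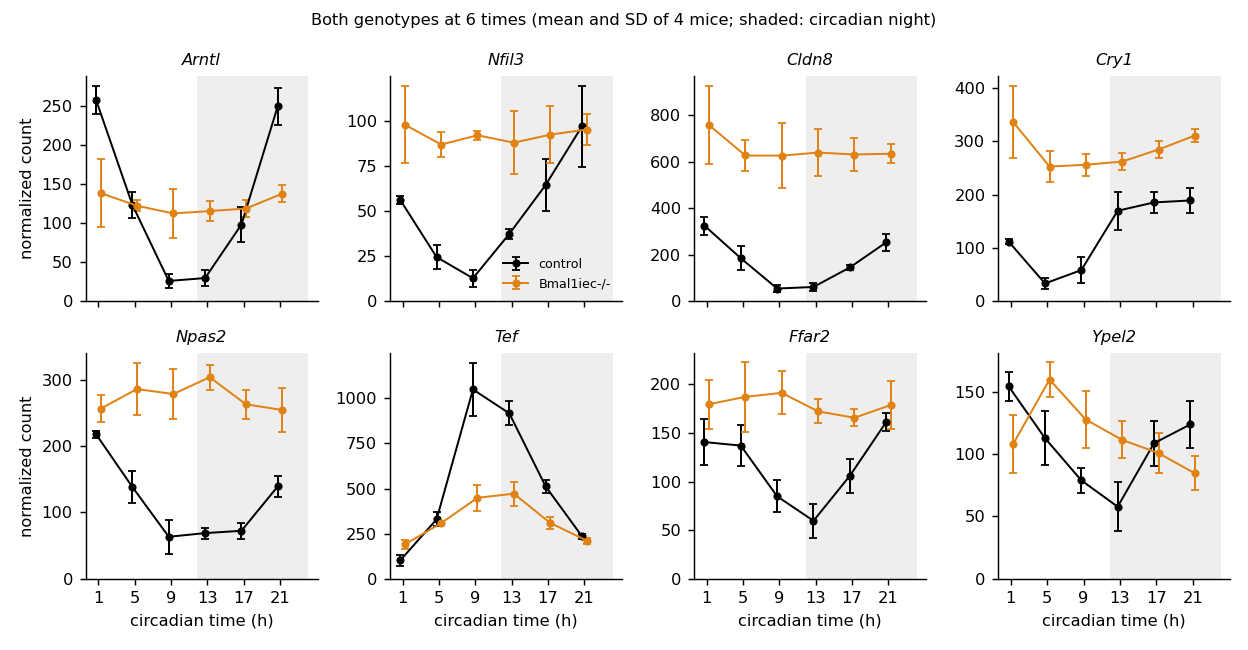
Normalized counts (vertical axis) of 8 genes at the 6 circadian times (horizontal axis, h), as mean and SD of 4 mice, with controls in black, Bmal1iec-/- mice in orange and the circadian night shaded. For *Nfil3* the controls rose from a mean of 12.8 at CT9 to 96.9 at CT21, while the mutants had means of 91.9 and 95.1.

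The 6 genes with the smallest p-values of that difference included *Arntl*, *Nfil3*, *Cldn8*, *Cry1* and *Tns4*. In the mutants *Arntl* had 127, 133, 140 and 151 normalized counts at CT21 and 84.9, 104, 105 and 157 at CT9. These groups overlapped, and the control difference exceeded the mutant one by 2.94 on the log2 scale (edgeR adjusted p = 9.4e-10). The *Arntl* count covers the whole gene and every cell type of the tissue. Mutant *Nfil3* had 87.7, 92.5, 92.6 and 108 at CT21 and 90.1, 90.6, 91.5 and 95.3 at CT9, close to the level of control mice at CT21, and the control difference was larger by 2.84 (edgeR adjusted p = 1.3e-09). Mutant *Cldn8* had 593, 618, 635 and 691 at CT21 and 499, 513, 732 and 761 at CT9, above all 8 control mice at both times, and the difference between genotypes was 2.17.

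Mutant *Cry1* had 295, 312, 317 and 320 normalized counts at CT21 and 226, 262, 264 and 273 at CT9. All of these mutant values were above those of the controls at the same time. The control difference exceeded that of the mutants by 1.4 for *Cry1*, and *Tns4*, a focal adhesion protein, had -0.97. *Npas2* (1.25), *Ffar2* (1.02), *E2f2* (1.74) and *Tef* (-1.07) also differed between the genotypes. *Tef* was lower at CT21 in both, from 382, 405, 468 and 539 at CT9 to 191, 209, 216 and 231 at CT21 in the mutants. *Ypel2* turned direction, with log2 fold changes of 0.65 in controls and -0.60 in mutants. For *Ffar2* the mutants had 144, 181, 191 and 199 at CT21 and 165, 181, 209 and 210 at CT9, with overlapping groups, and the difference passed in 15 of 21 alternatives.

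*Nr1d1* and *Nr1d2* were lower at CT21 in the mutants as well, with log2 fold changes of -4.54 and -2.72, and so were *Dbp* (-2.82), *Ciart* (-3.0), *Per3* (-1.44) and *Hlf* (-1.73). None of these genes was called for a difference between the genotypes in this change. At CT9, however, every mutant was below every control for all of them but *Hlf*. *Nr1d1* had 59.2-245 normalized counts in CT9 mutants against 406-704 in CT9 controls, and *Dbp* had 62.5-187 against 256-466. None of the 5 tested clock activators passed in the mutants. Over all genes tested in the mutants, 2.85% were higher and 2.93% lower. For G2 and mitosis 16 of 25 genes were lower in the mutants, with a median of -0.81. Of the endoplasmic reticulum list 14 of 27 were higher, with a median of 0.36. S phase gave 5 higher of 27 (median 0.35), and fatty acid synthesis gave 3 of 17 (median 0.17). The drug transporter list gave 1 higher and 1 lower of 17 (median -0.18). Interferon-stimulated genes gave 1 higher and none lower of 25 (median -0.18). The counts of 1 gene are near the shares of all genes. The S phase level of the mutants was 0.22, 0.30, 0.48 and 0.55 at CT21 and -0.30, -0.24, -0.05 and 0.49 at CT9, where the highest value was that of SV400. The mutant counts rest heavily on single mice, since 845 genes were called with all mice, 1407 without SV400 and 243 without SV410. Whether a list as a whole differed between the genotypes was not tested.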

How the data were processed

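Colon RNA of 48 mice was read as paired reads of 150 bases from a stranded mRNA kit. The deposited values are raw counts per gene, which the authors made by quality checks (FastQC 0.11.5), trimming (Trimmomatic 0.39), alignment to mm10 (STAR 2.7.5c), SAMtools 1.3.1 and counting over exons (featureCounts 1.4.6). The annotation release and the strand setting of the counting are not given in the sources used here, so reads of overlapping antisense genes may be shared. Of 55401 genes, 55141 received a symbol from the GENCODE annotation of GRCm38. Columns were matched to mice by the name in the sample labels, and no column was left over.

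Counts of the 24 control mice were fitted by the edgeR (4.0.16, R 4.3.3) quasi-likelihood method with 1 mean per circadian time, TMM factors and the default expression filter, which kept 14221 genes. The contrast was CT21 minus CT9, with Benjamini-Hochberg adjustment over all genes kept, an adjusted p below 0.05 and, as the study did, a fold change of 1.5. The other 4 times enter through the estimate of spread, the expression filter and the TMM factors. Bmal1iec-/- mice and the difference between genotypes were fitted on all 48 mice, and values of the 2 fits are not from the same model. Normalized counts are counts divided by each library's DESeq2 size factor, a median of ratios over genes, computed over all 48 mice. SE is that of the log2 fold change. A list's level is the mean over its genes of log2 (normalized count + 1) after subtracting each gene's mean over the 24 controls. On simulated counts, 73.5% of 200 genes changed 2-fold were recovered, with 8 false calls among 13858 others. For the difference between genotypes, 53.3% of 197 such genes were recovered, with 4 false calls among 14252 others. At these depths no fold is given where a group had 3 counts or fewer per mouse.

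Named genes were the 12 with the smallest p in each direction with a fold change of 1.5, leaving out Gm, Rik and pseudogene names, all clock and PAR bZIP genes, up to 4 called genes per direction of each of the other lists, genes the study names, the 5 largest changes in each direction with a mean of at least 20 normalized counts, the 6 smallest p of the genotype difference and the 3 genes most like *Arntl* and *Dbp*. *Pdgfra*, *Itgax*, *Acly*, *Fasn* and the genes at 0 were named as members of their lists after their values were seen. The comparison and the lists were chosen with earlier results of these data known. Alternatives were DESeq2 (1.42.0), limma-voom (3.58.1), other scaling factors and filters, other sets of mice, a test against the fold itself and leaving out each mouse. Some genes that these rules name are not reported here.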

Additional observations from a re-analysis of the deposited data

Results flagged for a closer look

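In 396 groups of 4 mice (177 tested and 2 untested genes and 19 marker lists at 2 times), 25 had 1 mouse whose gap to the next mouse was a large share of the group's range. Chance marks about 1 group in 20, and related genes are not independent of each other. Of the 25, 12 were in the CT9 mouse SV420. In normalized counts, SV420 was highest of the CT9 mice for *Abcg2* (439), *Adamts4* (4.48), *Cd44* (870), *Cgn* (807), *Cldn2* (2059), *Hsp90aa1* (1066), *Hspa4* (845), *Mx1* (46.6) and the sum of adipocyte markers (1100), and lowest for *Ccnb2* (77.9) and *Ces1d* (692). For all of these but *Ces1d*, SV420 lay on the side of the CT21 mean.

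Among the CT21 mice, SV433 stood apart for *Abcg2* (471), *Fabp2* (1001), *Igkv2-109* (306) and *Slc11a2* (246), SV441 for *Amd1* (513), *Cycs* (1035), *Slc15a1* (2.84) and the sum of T cell markers (76.6), and SV476 for *Bst2* (52.7) and *Hlf* (24.9). At CT9, SV415 stood apart for *Cyp2d26* (365) and SV412 for *Ifng* (1.05).

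The change from CT9 to CT21 differed between the genotypes in 17 genes by an edgeR test of the difference itself. The control log2 fold change minus that of Bmal1iec-/- mice was 2.94 for *Arntl*, 2.84 for *Nfil3*, 2.17 for *Cldn8*, 1.4 for *Cry1*, -0.97 for *Tns4*, 1.25 for *Npas2*, -1.07 for *Tef*, -0.62 for *Anxa7*, 1.19 for *Ier5*, 1.74 for *E2f2*, 1.26 for *Ypel2*, 0.42 for *Prnp*, 1.02 for *Ffar2*, 0.79 for *Arl4a*, -0.68 for *Eps8l3* and 0.68 for *Cdcp1*. The calls of *Prnp*, *Arl4a*, *Eps8l3* and *Cdcp1* held in 13, 14, 10 and 10 of 21 alternatives. *Prnp*, *Arl4a*, *Eps8l3* and *Cdcp1* were named after their values were seen.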

How the results depend on the processing

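No paired analysis was possible because each mouse has a number of its own and no number is shared between groups. The count of genes that differed in the controls (2495) ran from 1671 to 2488 over the alternatives, and the lowest count came without SV441. A test against a fold change of 1.5 itself kept 83 genes (31 higher and 52 lower) of the 982 that passed the test against no change and also had that fold. The count with that fold ran from 763 to 1084 when single mice were left out and the genes were called anew. For the difference between genotypes, 17 genes became 139 without the filter on low counts and 10 with only the 16 mice of CT21 and CT9. For Bmal1iec-/- mice, 845 genes (412 with the fold) became 395 (248) with only those 16 mice, and ran from 243 (155) without SV410 to 1407 (714) without SV400. The cause of these shifts was not tested.

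Of 2824 values of 177 named genes under alternatives, 2612 kept their direction and their side of the threshold, 205 no longer passed, 1 newly passed and 6 changed sign. The sign changes were in *Cry2* and *Tff2*, neither of which passed: *Cry2* was -0.003 with upper-quartile factors, -0.027 with limma-voom and between -0.083 and 0.201 when single mice were left out, and *Tff2* was between -0.156 and 0.604. Depth limits genes at a few counts per library, such as *Ifng*, *Tnf*, *Retnlb* and *Cyp1a1*.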
